A study of Rattus norvegicus with 25 samples.

Results

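Probe set b6947 is the group of array probes whose names begin with that number, and it holds 109 of the 4441 bacterial probes of the HuGChip, a microarray of short DNA probes for genes of gut bacteria. The members were found by name alone, but the set was chosen by a measured value, the spread of its signal between rats fed the control oil, so that spread is given as a description and is not tested. No taxon is paired with the set in the sources used here, and none is named.

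The array measured 16S rRNA gene amplicons from the faeces of Wistar rats, an outbred laboratory strain, that had been fed 1 of 4 diets for 12 weeks. The PO group received a control oil of equal energy and the LO group received linseed oil, a plant source of omega-3 fatty acid. The A+PO and A+LO groups received the same oils together with wheat aleurone, an outer layer of the cereal grain. Each amplification used 10 ng of DNA and 35 PCR cycles, and 250 ng of labelled product was hybridised. There were 6 PO, 6 A+PO, 6 LO and 7 A+LO samples on 13 arrays. Samples without aleurone carried the dye Cy3 and those with aleurone carried Cy5, so the effects of dye and aleurone cannot be told apart. The 6 control-oil arrays lay on one slide and the 7 linseed arrays on another, so slide and oil cannot be told apart either. PO and A+PO samples with the same number shared an array. LO 3 shared an array with A+LO 1 and LO 11 with A+LO 9, while A+LO 11 stood alone. The other 4 A+LO samples, whose numbers differ between sources, are called after their partner, for example A+LO with LO 4.

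The 16S rRNA gene encodes the RNA of the small ribosomal subunit, and its mixture of conserved and variable stretches is widely used to tell bacteria apart. A probe binds a stretch of the amplicon by base pairing, and probes that differ by a base are used to cover known variants of the stretch. Signal from such an array reflects relative amounts of matching amplicons, and related sequences can bind the same probe.

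The second number of a probe name divides the set into probe groups 1 to 5, with 56, 14, 12, 15 and 12 probes. The probes are 25 bases long. Within probe groups 1 to 5, respectively 5, 11, 14, 14 and 22 of the 25 positions were the same in all probes, so probe group 5 was the most uniform and probe group 1 the least. The probes of b6947 differed from the nearest probe of any other set, aligned base by base, by 8 to 12 bases.

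The 12 probes of probe group 5 are shown in full because their signals differed most by a single base. They differ at positions 16, 18 and 22, counted from 1 at the 5′ end. Capitals mark bases that differ from the commonest base of the probe group, with ties settled by alphabetical order. Positions 16, 18 and 22 are all such ties in probe group 5. Its capitals therefore do not mark rarer bases. The first lines carry G at position 16 and the later ones T.
b6947_5_1: ccgggggtacctgaagtacgtaacc
b6947_5_2: ccgggggtacctgaagtCcgtaacc
b6947_5_3: ccgggggtacctgaagtacgtTacc
b6947_5_4: ccgggggtacctgaagtCcgtTacc
b6947_5_5: ccgggggtacctgaagtGcgtaacc
b6947_5_6: ccgggggtacctgaagtGcgtTacc
b6947_5_7: ccgggggtacctgaaTtacgtaacc
b6947_5_8: ccgggggtacctgaaTtacgtTacc
b6947_5_9: ccgggggtacctgaaTtCcgtaacc
b6947_5_10: ccgggggtacctgaaTtCcgtTacc
b6947_5_11: ccgggggtacctgaaTtGcgtaacc
b6947_5_12: ccgggggtacctgaaTtGcgtTacc

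The probes of the other probe groups that the results turn on are shown with the same use of capitals. Probe b6947_4_13 matches the commonest bases of probe group 4 at every position. Probes b6947_4_14, b6947_4_10 and b6947_4_8 are variants of it near its 5′ end.
b6947_2_7: Gactcggggatagcctttcgaaaga
b6947_3_1: tATGgagactgccgtcgtaagatgt
b6947_3_2: tggAgagactgccgtcgtaagatgt
b6947_3_10: tgAcAagactgccAtcgtaagatgt
b6947_3_12: tggcgGgactgccgGTgtaagCCgA
b6947_4_8: gtGTaAgatggggatgcgttccatt
b6947_4_10: gtTGTcgatggggatgcgttccatt
b6947_4_13: gtaaacgatggggatgcgttccatt
b6947_4_14: gtaaaGgatggggatgcgttccatt

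Each probe had 3 spots on an array. A probe was counted as detected in a sample where over 0.5 of its spots, outlier spots left out, were well above background by the scanner software's test. Of the 109 probes, 65 were detected in at least 1 of the 25 samples, 8 were detected in all 25, and 44 were detected in none. Probe groups differed widely in this. Probe group 1 had 42 of its 56 probes detected in no sample, probe group 2 had 2 of 14, and every probe of probe groups 3, 4 and 5 was detected at least once. The 8 probes detected in all samples were 5 of probe group 3 and 3 of probe group 5.

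In the control-oil rats the number of detected b6947 probes was high on the arrays of PO 1 and PO 2 and lower on the other 4. It was 52, 44, 27, 23, 21 and 20 of 109 in PO samples 1 to 6, and 58, 44, 29, 25, 20 and 22 in A+PO samples 1 to 6. In linseed-fed rats it was 31, 14, 24, 25, 31 and 22 in LO 3, 4, 6, 8, 9 and 11. It was 26, 10, 18, 20, 30 and 17 in the A+LO samples on those same arrays in that order, and 18 in A+LO 11. The ranges of all 4 diets overlapped. As shares of the 109 probes these were 28.6% ± 12.4 (SD, n = 6) for PO and 30.3% ± 13.7 (SD, n = 6) for A+PO. With linseed oil the shares were 22.5% ± 5.82 (SD, n = 6) for LO and 18.2% ± 5.96 (SD, n = 7) for A+LO. Over the probes of all other sets the shares were 25.0% ± 5.22, 24.7% ± 5.88, 21.3% ± 2.98 and 18.8% ± 2.82 (SD) in the same order. With spots counted where they exceeded background by 3 background SD, the shares of b6947 were instead 73.9% for PO, 27.5% for A+PO, 81.7% for LO and 11.9% for A+LO, so their order depends on the detection rule. By the main rule, the means of the set lay close to those of the other sets, and its SD was wider in each diet, although a single set averages over fewer probes. Among 53 sets the SD of the detected share ranked 9 for PO, 9 for A+PO, 13 for LO and 17 for A+LO, counted from the widest.

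The arrays of PO 1 and PO 2 were singled out after the set was seen to be high on them. The set itself was chosen for its spread between control-oil rats. An excess over other sets on these arrays is thus built into the choice, and the shares below are only a description. Of the 65 probes ever detected, 22 (33.8%) were detected only in samples of the arrays of PO 1 and PO 2. Among the 2078 such probes of other sets the share was 21.3%. Of these 22 probes, 13 (59.1%) were seen on the array of PO 1 alone, and of the 443 such probes of other sets 59.4% were. A further count asked which probes were detected in all 4 samples of those arrays and in no other sample, and it found 6 of the 65 (9.23%), against 2.26% of the other sets' probes.

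Both samples of the array of PO 1 stood apart in raw signal over the whole array. The median raw signal over all probes was 513 in PO 1 and 86.1 to 125 in the other PO samples, and it was 169 in A+PO 1 and 72.8 to 88.4 in the other A+PO samples. Of the 327 spots of b6947, 146 were marked as outliers in PO 1 and 182 in A+PO 1, then 114 in PO 2 and 102 in A+PO 2, and 40 to 96 in the remaining samples. No b6947 spot was saturated. The part of these values in the results was not tested. The array of PO 2, which had the next most detected probes, had median raw signals of 105 and 86.0, inside the range of the remaining control-oil samples. Over the whole chip, 1434 of the 4441 probes were detected in PO 1, 1339 in PO 2 and 842 to 1163 in the other PO samples. With aleurone these counts were 1534 in A+PO 1, 1204 in A+PO 2 and 814 to 1219 in the others.

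A level is given below as log2 of the background-corrected signal relative to the 75th percentile of the channel, so a level of 0 is that of a bright probe. Levels were averaged over the 34 b6947 probes detected in at least 6 samples. Among them, 2, 2, 10, 9 and 11 belonged to probe groups 1 to 5. The filter admitted b6947_1_51, b6947_4_2 and b6947_4_9, each detected in 6 samples, and left out b6947_1_50 and b6947_4_7, each detected in 5.

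The mean level of the set mostly followed the array, but not on the array of LO 4. In PO samples 1 to 6 it was -0.81, -2.57, -6.53, -5.90, -6.92 and -6.68, and in A+PO samples 1 to 6 it was -1.96, -3.59, -7.61, -7.82, -8.48 and -8.20. PO 1 and PO 2 and their array partners were thus the brightest samples of both control-oil groups. In LO 3, 4, 6, 8, 9 and 11 it was -4.85, -8.31, -7.30, -7.14, -4.72 and -7.48. In the A+LO samples on those arrays it was -4.01, -5.59, -7.56, -7.75, -5.71 and -7.55, and -7.91 in A+LO 11. LO 3 and LO 9 were the brightest of the LO samples. Among A+LO samples, the highest were A+LO 1, which shared the array of LO 3, and A+LO with LO 4. The latter had only 10 detected b6947 probes and a median raw signal of 60.3 over the set, and its median level over all 1153 probes was -6.45, so most of the 34 probes in its mean were not detected there. A+LO 1 had 26 detected b6947 probes, a median raw signal of 61.0 over the set and a median level of -6.08 over all probes. Probe b6947_5_10 was detected in no linseed sample, yet its level ran from -12.5 to -7.43 in LO and from -11.6 to -6.34 in A+LO. The levels of undetected probes thus differed between samples, and their part in these means and in the SDs below was not tested.

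The mean level of the set was -4.90 ± 2.57 (SD, n = 6) for PO and -6.28 ± 2.78 (SD, n = 6) for A+PO. With linseed oil it was -6.63 ± 1.49 (SD, n = 6) for LO and -6.58 ± 1.49 (SD, n = 7) for A+LO. Among the 53 sets with at least 3 probes passing the filter, the SD of b6947 ranked 7 in PO and 4 in A+PO, counted from the widest, but 41 in LO and 42 in A+LO. The median SD over the sets was 1.63 for PO, 1.55 for A+PO, 1.79 for LO and 2.05 for A+LO. Set b7007, by comparison, had SDs of 1.69 in PO and 1.87 in A+PO, and 2.34 in LO. Without the array of PO 1 the SD of b6947 was 1.80 in PO and 2.01 in A+PO. With levels taken relative to each sample's median probe in place of the 75th percentile of bright probes, b6947 ranked 14 in PO and 22 in A+PO. How wide the set stood among the others therefore depended on the scaling.

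The spread was carried by some of the probes. The 34 probes had a median SD over PO samples of 3.54, against 1.92 over all 1153 probes that passed the filter, and 23 of the 34 were above that value. For the 8 b6947 probes detected in every sample the median SD was 0.35 for PO, 1.25 for A+PO, 1.91 for LO and 2.55 for A+LO. The 405 probes of the array detected in every sample had a median SD of 1.02 over PO samples. The median SD between the spots of a probe within an array was 0.349 over the b6947 probes in PO.

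In the control-oil groups, position 16 of probe group 5 separated steady probes from variable ones. This feature was chosen after its values were seen. The SD between samples of the mean level was 0.203 in PO and 0.229 in A+PO for the 6 probes with G there, and 4.99 and 5.77 for the 5 probes with T that passed the filter. In LO these SDs were 1.16 and 2.21, and in A+LO 2.35 and 2.30. The T probes had raw signals of only 57.6 to 126 in A+LO, near background. In LO they had 89.1 to 1131, and b6947_5_10, detected in no LO sample, had an SD of 2.28 there. The SD of the G probes in A+LO takes in A+LO with LO 4, where 3 of the 6 were detected. In LO it takes in LO 4, where b6947_5_6 was at -4.06 and the nearest LO sample at -0.126. The LO and A+LO values therefore do not compare the steadiness of G and T probes. Without the T probes the SD of the set mean was still 2.18 in PO and 2.28 in A+PO. The 6 probes with G there were detected in 24 or 25 of the 25 samples. The 6 probes with T there were detected in 4 to 18. In the 4 samples of the arrays of PO 1 and PO 2 the raw signals of the 6 T probes lay between 36771 and 476192. In the other 21 samples they lay between 57.6 and 1408. The same 4 samples were high in all of the T probes, which share a target stretch and are not independent of each other. How many other probes of the array split in this way was not counted.

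The probes b6947_5_4 and b6947_5_10 differ by a single base, the substitution T16G from the latter to the former. The raw signal of b6947_5_10 was 123552 in PO 1, 159348 in PO 2, 221388 in A+PO 1 and 104409 in A+PO 2. In the other samples it was 95 to 149 for PO, 75 to 106 for A+PO, 102 to 186 for LO and 59 to 67 for A+LO, and it was not well above background in any of them. The raw signal of b6947_5_4 was 143867 to 374442 in PO with a median of 247186, 146542 to 837802 in A+PO with a median of 546338 and 185669 to 652347 in LO with a median of 586121. In A+LO it ranged from 78 to 516395 with a median of 82970. The probe with G was detected in 25 samples and the probe with T in 4, all of them on the arrays of PO 1 and PO 2.

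In the pair b6947_5_1 and b6947_5_7 (G16T), the T probe was detected in 7 samples, which were 2 PO, 2 A+PO, 2 LO and 1 A+LO. The raw signal of b6947_5_7 was 111175 in PO 1, 164736 in PO 2, 36771 in A+PO 1 and 91051 in A+PO 2, and 60 to 737 elsewhere. The highest of those other values was that of LO 3. Its partner b6947_5_1 was detected in 24 samples, all but A+LO with LO 4, where its raw signal was 59. Elsewhere b6947_5_1 lay between 148659 and 889398. Detection counts for the other pairs at this position were 24 and 9 for b6947_5_2 and b6947_5_9, 24 and 13 for b6947_5_3 and b6947_5_8, 25 and 17 for b6947_5_5 and b6947_5_11, and 25 and 18 for b6947_5_6 and b6947_5_12. No sample had the T probe of a pair detected without the G probe. The probes of these pairs share a target stretch and are not independent of each other.

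Over the set, 138 pairs of probes of 1 probe group differed by a single base. In 54 of the pairs both probes were detected in at least 1 sample, in 21 only 1 of them was, and in 63 neither was.

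Probe b6947_5_11 had the largest spread of the probes detected in all PO samples. Its raw signal was 185405, 333452, 1273, 1408, 510 and 328 in PO samples 1 to 6, and 466395, 429827, 127, 291, 145 and 129 in A+PO samples 1 to 6. In LO it was 129 to 1131 with a median of 298, the highest in LO 3 and LO 9, and in A+LO it was 61 to 126 with a median of 67. Its SD over PO samples was 4.56 on the log2 scale. Its levels in the arrays of PO 1 and PO 2 lay above those of all other samples.

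Probe b6947_3_1 was next, with an SD of 3.26 over PO samples. Its raw signal was 1835 to 302542 in PO with a median of 5483, and 740 to 469834 in A+PO with a median of 1720. It was 223 to 100934 in LO with a median of 3897 and 63 to 14139 in A+LO with a median of 250. It was detected in all PO, A+PO and LO samples and in 4 of 7 A+LO samples, and the ranges of the 4 diets overlapped.

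Probe b6947_3_10 showed a different set of bright arrays. Its raw signal was 169458, 271522 and 176507 in PO 1, PO 2 and PO 4, and 462311, 352380 and 340017 in A+PO 1, A+PO 2 and A+PO 4. It was 25674 in LO 9 and 4197 in A+LO with LO 9, and 58 to 1116 in all other samples. The bright samples were again both samples of an array. This probe was named after its values were seen.

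The steadiest probe in PO was b6947_5_1, with an SD of 0.17 on the log2 scale. Probes b6947_5_6, b6947_3_12 and b6947_5_5 were detected in all samples and had the highest median levels of those that were. The raw signal of b6947_5_6 was 163348 to 442536 for PO, 404391 to 871576 for A+PO, 181045 to 605411 for LO and 208357 to 929372 for A+LO. Probe b6947_3_12 was 147320 to 417696 for PO, 56866 to 757026 for A+PO, 25470 to 609790 for LO and 66 to 1025560 for A+LO. Probe b6947_5_5 was 147835 to 447588 for PO, 335980 to 945038 for A+PO, 170120 to 624419 for LO and 73 to 817743 for A+LO. Their low values in the linseed groups came from LO 4 and from A+LO with LO 4. That array had the fewest detected probes of the set, 14 and 10, and also the fewest over the whole chip, 679 and 576 of 4441. In A+LO with LO 4, b6947_3_12 and b6947_5_5 counted as detected at raw signals of 66 and 73, where the median background was 69. Detection in every sample thus includes values near background.

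By probe group, the diets overlapped in every case. Of the 12 probes of probe group 3, the mean number detected was 9.50 ± 1.52 (SD, n = 6) for PO and 9.67 ± 1.75 (SD, n = 6) for A+PO, then 9.17 ± 0.753 (SD, n = 6) for LO and 8.14 ± 1.46 (SD, n = 7) for A+LO. Probe group 5 had 9.33 ± 2.34, 10.0 ± 1.79, 8.33 ± 2.16 and 7 ± 2.24 of its 12 in the same order (SD, n = 6, 6, 6 and 7). Probe group 4 had 7 ± 5.29, 6.33 ± 5.57, 5 ± 2.68 and 2 ± 2.24 of its 15, again in that order, and single samples ranged from 0 to 14. Probe groups 1 and 2 averaged 3.83 detected probes or fewer in each diet.

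Samples on an array resembled each other. Over the 34 probes, the Spearman correlation of levels between the 2 samples of an array was 0.550 to 0.969, with a median of 0.902 over 12 arrays. Between samples on different arrays it was 0.213 to 0.909, with a median of 0.741 over 288 pairs. Over the 1119 other probes these medians were 0.959 and 0.761. Correlations are across probes that share sequence, and the samples of an array share the array and the hybridisation but come from different rats with different diets. The set mean minus its group mean differed by a median of 0.34 (log2) between the samples of an array, against 1.86 between samples of different arrays. The largest difference between the samples of an array was 2.68. Over the 12 arrays, a b6947 probe was detected in both samples 289 times, in the Cy3 sample alone 45 times and in the Cy5 sample alone 30 times. Detection in both thus made up 79.4% of these cases, against 82.2% for the probes of other sets.

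The first question of the design is whether linseed oil changed the signal. With limma over 1153 probes, the array as a random block and Benjamini-Hochberg adjustment, no b6947 probe differed between LO and PO. All 34 estimates were negative, from -4.55 to -0.01, with a median of -1.76 against -1.10 over all probes. The sign depended on the scaling. With the median of the probes passing the filter as the scaling, these medians were 0.166 and 0.825. At an unadjusted p under 0.05 there were 2 b6947 probes of 34 and 26 probes of 1153 (2.25%). No probe of the array passed the adjusted threshold (0% called). The b6947 probe with the smallest p was b6947_5_11, at -5.69 ± 4.56 (SD, n = 6) in PO and -9.99 ± 2.28 (SD, n = 6) in LO. Its fitted difference was -4.55 with a standard error of 1.77 and a limma adjusted p of 0.756. The difference was smaller than the SD among PO samples. Under the same test no b6947 probe passed with any other signal, scaling, filter, block or left-out sample tried.

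In rats fed aleurone, no b6947 probe differed between A+LO and A+PO by limma (0% of 1153 probes called). The median of the 34 estimates was -0.21, against 0.68 over all probes, with 16 positive and 18 negative. At an unadjusted p under 0.05 there were 0 b6947 probes and 87 probes in all (7.55%). The smallest p was that of b6947_3_2, whose level was -0.85 ± 0.87 (SD, n = 6) in A+PO and -3.28 ± 3.56 (SD, n = 7) in A+LO, with a difference of -2.43 ± 1.31 (SE) and an adjusted p of 0.567. Without the filter on dim probes, 60 of the 109 b6947 probes passed (55.0%, 59 of them higher in A+LO), below the 70.5% of all 4441 probes that passed then. Averaged over aleurone, linseed against control oil gave 0 b6947 probes by limma (0% called), 0 at an unadjusted p under 0.05, and a median of -0.78 against -0.21 over all probes. Of all 1153 probes, 24 (2.08%) had an unadjusted p under 0.05 there.

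The second question is whether aleurone changed the signal with the control oil. In this comparison 13 of the 34 b6947 probes (38.2%) were lower with aleurone and none was higher, against 66.1% of all 1153 probes, all of them lower, by the limma test. At an unadjusted p under 0.05 there were 15 b6947 probes, against 69.7% of all probes. The share of b6947 probes lay below that of the array as a whole. The median of the 34 estimates was -1.50 against -1.98 over all probes, a gap of 0.49 that fell to 0.12 with loess and turned to -0.03 with quantile scaling over all samples. The 13 probes were all 9 tested probes of probe group 4, 2 of probe group 2, and 1 each of probe groups 1 and 5. None was in probe group 3.

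The largest difference was that of b6947_2_7. Its raw signal was 58482, 24884, 402, 534, 4057 and 459 in PO samples 1 to 6 and 52680, 10902, 118, 133, 147 and 120 in A+PO samples 1 to 6. Its level was lower in A+PO on all 6 arrays, by 2.79 ± 0.783 (SE) on the log2 scale in the fit, with a limma adjusted p of 0.00387. Probe b6947_4_14 had a raw signal of 20687, 4321, 933, 155, 137 and 180 in PO and 6479, 932, 138, 95, 94 and 123 in A+PO. It too was lower on all 6 arrays, with a fitted difference of -2.35 ± 0.643 (SE) and an adjusted p of 0.00339. Probes b6947_4_13 and b6947_4_10 were lower by a fitted difference of -2.49 ± 0.690 (SE) and -2.36 ± 0.699 (SE), with adjusted p of 0.00357 and 0.00538, each on 6 of 6 arrays. In each of these 4 probes the ranges of the groups overlapped. Only 2 of the 13 were detected in every sample of either group, and the dimmest values of the others lie at background.

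These 13 calls depended on the processing. With the median of the probes passing the filter as the scaling, 12 of the 34 (35.3%, against 27.5% of all probes called) were instead higher in A+PO and none was lower, and the differences of b6947_2_7, b6947_4_14, b6947_4_13 and b6947_4_10 were then 0.06, 0.50, 0.36 and 0.49. With quantile scaling over all samples, with loess within arrays or with no array block, none passed. Of all probes, 1.04%, 7.11% and 0% were called in these settings. With the sample number, which marks the shared array, as a fixed block in the groups compared, 25 (73.5%) were lower, against 79.6% of all probes called. Leaving out single samples or arrays gave 5 to 23. The count was 5 without PO 1 (46.2% of all probes called), 7 without PO 2 (59.3%) and 6 without PO 4 (50.6%). It was 6, 7 and 7 without A+PO 4, 5 and 6 (50.5%, 50.4% and 48.3% of all probes). Without A+LO 1 it was 8 (59.1%), and without LO 4 or A+LO with LO 4 it was 23 (78.6% and 78.1%). Without the arrays of PO 4, PO 5 and PO 6 it was 6, 7 and 7 (49.3%, 52.8% and 49.2%). Leaving out the array of LO 3 gave 8 (57.7%) and that of LO 4 gave 22 (78.3%).

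With linseed oil, no b6947 probe differed between A+LO and LO by limma, against 4.94% of all 1153 probes (0.867% higher and 4.08% lower in A+LO). At an unadjusted p under 0.05 there were 3 b6947 probes and 303 in all (26.3%). The median of the 34 estimates was 0.62, against -0.24 over all probes, with 21 positive and 13 negative. The smallest p was that of b6947_5_4, at -0.04 ± 0.49 (SD, n = 6) for LO against -1.99 ± 2.20 (SD, n = 7) for A+LO, with a fitted difference of -1.88 ± 0.607 (SE) and an adjusted p of 0.0575. It was lower in the A+LO sample on 4 of 6 arrays. Counts from 0 to 24 were obtained under other settings, in both directions: 23 of 24 were lower in A+LO with quantile scaling within each dye, where 76.4% of all probes were called, and 20 of 20 were higher with the median of the probes passing the filter, where 42.1% were. Leaving out LO 4, A+LO with LO 4 or their array gave 8, 8 and 7, where 43.7%, 42.2% and 43.8% of all probes were called. Leaving out A+LO 1 or its array gave 1, where 9.11% and 5.03% were called.

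The last comparison is whether the aleurone difference itself differed between oils. The interaction, which is the aleurone difference with linseed oil less that with control oil, was positive for 9 of the 34 b6947 probes (26.5%), against 28.2% of all 1153 probes, by limma. The share in the set was near that of the array. At an unadjusted p under 0.05 there were 17 b6947 probes, against 38.5% of all probes. The 9 were 8 of the 9 tested probes of probe group 4 and b6947_1_51 of probe group 1, and 8 of the 9 were also among the 13 that were lower in A+PO. The median of the 34 estimates was 2.11 against 1.51 over all probes.

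The largest estimates were those of b6947_4_8, b6947_4_13, b6947_4_14 and b6947_4_10. Probe b6947_4_8 had raw signals of 127 to 76478 in PO with a median of 336, 87 to 45289 in A+PO with a median of 108, 119 to 249 in LO with a median of 170 and 62 to 76 in A+LO with a median of 68. It was not well above background in any A+LO sample, so its level there is only a bound. Its interaction estimate was 3.32 ± 0.975 (SE) with a limma adjusted p of 0.0157. Probes b6947_4_13 and b6947_4_14 each gave 3.31, with standard errors of 0.972 and 0.906 and adjusted p of 0.0156 and 0.0126. Probe b6947_4_10 gave 3.03 ± 0.985 (SE) with an adjusted p of 0.0224. Of the 9 probes, 4 were not well above background in any A+LO sample, and none was detected in every sample of any diet.

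The interaction calls did not hold under other processing. None of the 34 passed with the scanner software's background-subtracted or processed signals, with the median of the probes passing the filter, with either quantile scaling, with loess within arrays or with no array block. Of all probes, at most 1.04% were called in any of these settings. With the median of all probes as the scaling, 7 (20.6%, against 15.4% of all probes called) passed with the opposite sign. Leaving out PO 1 or A+LO 1 also left none, with 0% and 5.72% of all probes called. The count was 5 without PO 2, PO 4, A+PO 5 or LO 6 (23.7%, 20.6%, 21.3% and 25.8% of all probes). It was 3 and 4 without A+PO 4 and A+PO 6 (16.4% and 17.9%), 14 without LO 9 (32.2%) and 16 without A+LO with LO 4 (31.9%). Without the arrays of PO 4, PO 6 and LO 3 it was 3, 5 and 3 (14.4%, 18.6% and 18.6%).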

How the data were processed

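The deposited intensities, linear and per spot, were written by Agilent Feature Extraction 10.5.1.1 per the file headers. The deposited mean spot and median background intensities were used. Flags for spots well above background, saturated or outlying were used as deposited, per the file headers (unit other). No later step by the authors is given in the sources used here. Each dye was processed as a single channel, as in the series' design text. Spots marked as outliers were left out unless all 3 of a probe were marked. Background was corrected by normexp with an offset of 50 on all 14080 spots. Log2 values were averaged over spots, and taken less the channel's 75th percentile, taken over 405 probes detected in all samples. Probes detected in at least 6 of 25 samples (1153) were fitted with limma 3.58.1 in R 4.3.3. The fit had 4 group means, the array as a random block (consensus correlation 0.760, statmod 1.5.0) and two-sided tests, with Benjamini-Hochberg adjustment over all 1153 and a threshold of 0.05. A+LO 11 has no array partner, so a fitted difference need not equal that of the group means. The fit was tested on simulated data.

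Members, named probes and tests were chosen with earlier results of these data known. Named probes are the 3 detected in the most samples, those of largest and smallest SD in PO, the smallest p and up to 4 largest called differences per comparison, those beside the filter limit, and 2 single-base pairs. Same-numbered PO and A+PO samples are paired because they share an array. That samples came from separate rats is taken from the labels, and p-values measure the spread between these samples. There were 9 value columns of a channel with no listed sample, and they were not used. Alternatives changed the signal, scaling, filter, block, outlier spots, detection rule and samples. The number of arrays limits the precision.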

Additional observations from a re-analysis of the deposited data

Results flagged for a closer look

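Within groups, 6 of the 68 sets of values checked held a sample far from the others. Chance gives about 1 in 20 for independent sets. Many of these sets come from probes that share sequence, measured in the same samples and picked from these data. That rate is therefore no yardstick for the count. All are levels on the log2 scale, relative to the 75th percentile. In LO, sample LO 4 was low in b6947_5_6 at -4.06 (the nearest sample was at -0.126), in b6947_3_12 at -5.92 (nearest -0.062) and in b6947_5_1 at -3.35 (nearest -0.0643). Its array partner, A+LO with LO 4, was low among A+LO samples in b6947_3_12 at -6.52 (nearest -0.259) and in b6947_5_4 at -6.40 (nearest -2.58). In A+PO, sample A+PO 1 was low in b6947_3_12 at -3.02 (nearest -0.205). LO 4 and its partner had the fewest detected probes of all samples, over the set and over the chip. The part of that in these values was not tested.

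The difference between A+PO and PO and that between A+LO and LO differed from each other by the interaction test in 9 of the 34 probes (26.5%), against 28.2% of all 1153 probes. None passed under several other scalings. With the median of all probes as the scaling, 7 b6947 probes (20.6%) passed with the opposite sign, against 15.4% of all probes. Of the 9, b6947_1_51, b6947_4_2, b6947_4_8 and b6947_4_9 were not well above background in any A+LO sample, so their levels there are only bounds. The interaction estimates were 2.63 for b6947_1_51, 2.79 for b6947_4_1, 3.03 for b6947_4_10, 3.31 for b6947_4_13, 3.31 for b6947_4_14, 2.82 for b6947_4_2, 2.87 for b6947_4_5, 3.32 for b6947_4_8 and 2.92 for b6947_4_9.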

How the results depend on the processing

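Counts are of b6947 probes past the limma test. LO against PO and the oil difference averaged over aleurone gave 0 under every setting that was run. A+LO against A+PO gave 0 throughout except 60 of 109 (59 higher, against 70.5% of all probes) without the filter on dim probes. A+PO against PO (13 lower) gave 2 with the median of all probes, 12 in the opposite direction with the median of the probes passing the filter, 0 with quantile scaling over all samples, 0 with loess, 0 without the array block, 26 of 42 with outlier spots kept (78.8% of all probes called), and 5 to 23 with a sample or array left out. A+LO against LO (0) gave 14 with background-subtracted and 7 with processed signals, 10 with the median of all probes, 20 with that of the probes passing the filter, 24 and 3 with quantile scaling within dyes and over all samples, 2 with loess, 5 with outlier spots kept (7.72% to 76.4% of all probes were called over these settings), and 0 to 8 with a sample or array left out. The interaction (9 positive) gave 0 with background-subtracted signals, processed signals, the median of the probes passing the filter, both quantile scalings, loess and no array block, 7 negative with the median of all probes (15.4% of all probes called), 92 of 109 without the filter (84.4%, against 83.9% of all probes), 14 with the array as a fixed block (30.8% of all probes called), 23 of 42 with outlier spots kept (47.5% of all probes called), and 0 to 16 with a sample or array left out. The cause of these changes was not tested.

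With the replicate block, A+PO against PO gave 25 probes, all lower. For A+LO against LO only the samples with the shared numbers 9 and 11 could enter, and these numbers do not mark a shared array. Its count of 0 therefore decides nothing. The median difference of the 34 probes relative to the median probe had no test and moved by less than the spread between samples in every setting. With quantile scaling over all samples its sign turned to -0.03 for A+PO against PO, -0.18 for A+LO against LO and -0.07 for the interaction, and for the interaction it also turned with quantile scaling within dyes (-0.04), background-subtracted signals (-0.05) and processed signals (-0.07). Fitting only the groups compared was the same as the fit over all samples for the averaged difference and the interaction, so it gave no separate value, and loess left out A+LO 11.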
